A study of Rattus norvegicus with 8 samples.

Results

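Blood vessels of the brain grow, hold together and leak through a small set of signals, and 10 genes of that set were followed here. They were Vegfa, Flt1, Kdr, Angpt1, Angpt2, Tek, Cldn5, Ocln, Pecam1 and Vwf, chosen by the gene name that the array files give to a non-control spot. All 10 of the names were among the 35199 gene names on the array, and they took up 26 of 43379 non-control spots and 17 of 41012 probes. In 9 of the 10 genes at least 1 spot was valid in every rat, out of 21332 genes quantified in that way. The exception was Pecam1.

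Vegfa encodes a secreted growth factor that drives endothelial cells to divide and makes vessels permeable. It binds Kdr, the main signalling receptor, and Flt1, which binds the ligand tightly and signals weakly, also in a soluble form that acts as a trap. Angpt1 and Angpt2 are ligands of the receptor Tek, also called Tie2. Angpt1 from cells around the vessel keeps the endothelium quiet, and Angpt2, stored and released by activated endothelium, works against it in most settings. Cldn5 and Ocln are tight junction proteins, of which Cldn5 dominates the blood-brain barrier. Pecam1 is an adhesion molecule at endothelial contacts, and Vwf is a clotting protein that endothelial cells store together with Angpt2. Seizures are known to open the barrier for a time.

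RNA came from the dentate gyrus (DG) of adult female Sprague-Dawley rats of 150 to 200 g, all of them ovariectomized 1 week before injections began and all of them given kainic acid to induce status epilepticus (SE). The castrated, oil-injected group is called COS and the castrated, estradiol-replaced group CES, with 4 rats in each. Per the labels, CES rats received 4 doses of 2 µg of estradiol (E2) at intervals of 24 h, of which 2 came before and 2 after SE, the kainic acid dose was 16 mg/kg, and pentobarbital ended SE after 5 h. The methods give a different kainic acid dose, place the E2 injections before SE, name diazepam and give other times of collection, and nothing in the files decides between the accounts. Rats without SE were not analysed here, so the values compare E2 with oil after SE and say nothing of the change from a rat without seizures. Each rat was 1 colour of an array, both colours of an array held rats of the same group, and the 4 arrays shared 1 slide. The array is therefore nested in the group, and effects of array and group cannot be fully told apart. In whole DG tissue, fewer vessel cells and less RNA per vessel cell cannot be told apart either.

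A level below is log2 of the background-subtracted signal relative to the median of a rat's own valid spots, so that 0 is the level of a typical valid spot, and each difference is CES minus COS on that log2 scale. Valid spots numbered 32381 to 38553 in COS rats and 30690 to 35352 in CES rats. Under this scaling the median difference over all genes was -0.25, and limma called 28.3% of the genes lower and 5.8% higher in CES at an adjusted p under 0.05. When every rat was instead scaled by its median over those spots that were valid in each of the 8 rats, called the common scaling below, the median difference over all genes was 0.15, with 8.05% called lower and 15.7% higher. Each gene is therefore given under both scalings.

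The probes shown next are those inside coding sequence whose signals carry the results on the VEGF pair, the store of Vwf and the junction. Vegfa 2 opens with the start codon and lies within 1 exon at chr9:10521744-10521803. Vegfa 1, printed in 10 spots per array, covers 386 bases of genome with 60 letters at chr9:10528580-10528965 and so crosses an intron. Flt1 2 crosses introns in the same way at chr12:7924711-7941808, and Vwf 2 does so at chr4:161853997-161854486. All 4 of these probes are on the + strand, and Cldn5 1 is on the - strand at chr11_random:1224740-1224799, all in rn4 as the files give it.
Vegfa 1: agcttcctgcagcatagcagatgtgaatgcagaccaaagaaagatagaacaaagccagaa
Vegfa 2: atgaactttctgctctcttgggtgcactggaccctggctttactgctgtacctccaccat
Flt1 2: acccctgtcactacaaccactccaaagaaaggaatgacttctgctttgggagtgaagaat
Vwf 2: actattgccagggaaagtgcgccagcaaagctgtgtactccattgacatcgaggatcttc
Cldn5 1: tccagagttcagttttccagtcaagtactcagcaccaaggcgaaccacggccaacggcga

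After SE, Angpt2, Vwf, Kdr, Flt1 and Tek were lower in the E2-replaced rats than in the oil-injected rats, and Vegfa, Angpt1 and the junction genes Cldn5 and Ocln did not pass the test. Of the 9 genes 5 were called lower and 0 higher, against 28.3% and 5.8% of all genes, and the count of higher genes was also 0 at an unadjusted p under 0.05. Values of the groups did not overlap for 3 genes, Flt1, Angpt2 and Vwf, each lower in CES, as for 19.8% of all genes, and 0 lay wholly higher in CES, against 1.61% of all genes. Under the common scaling 1 gene, Angpt2, was called lower and 0 were called higher, against 8.05% and 15.7% of all genes. At an unadjusted p under 0.05 there were 4 lower and 0 higher genes under that scaling, and Flt1 and Angpt2, 2 genes, had values that did not overlap, as for 11.2% of all genes lower in CES, and 0 lay wholly higher, against 18.5%. The median difference of the 9 genes was -0.81 under the first scaling and -0.41 under the common one. The difference was below 0 in 8 genes under the first scaling and in 6 under the common one. By the t-test with unequal variances that the methods name, 0 of the 9 were called after Benjamini-Hochberg adjustment under either scaling, and 4 were lower at an unadjusted p under 0.05 under the first.

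**Figure D1:**
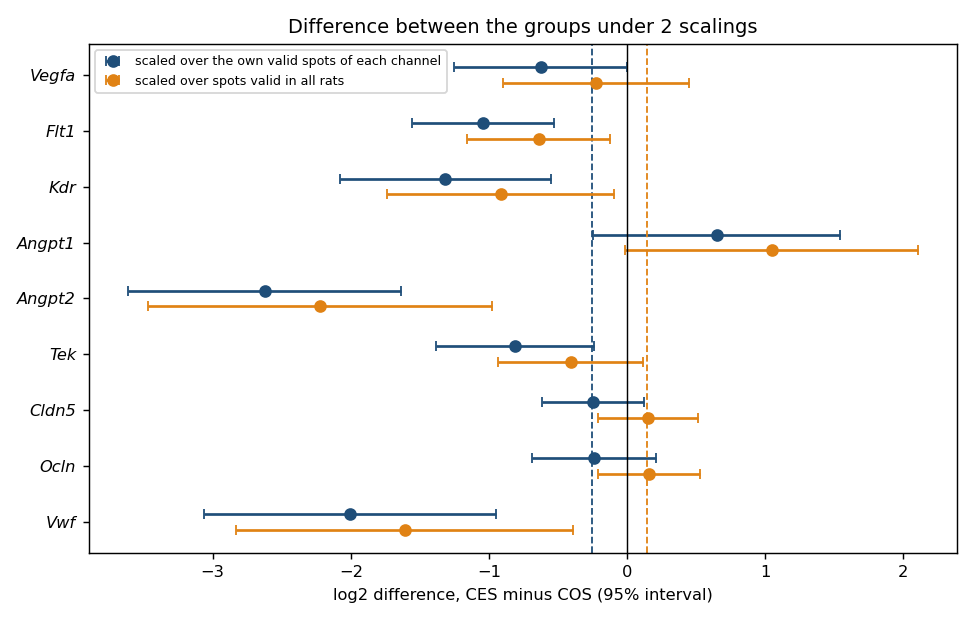
The log2 difference CES minus COS (x axis) of each quantified gene (y axis) under both scalings, with points for the limma estimate and bars for its 95% interval; dashed lines mark the median of all genes, -0.25 and 0.15. Angpt2 lies farthest to the left under both scalings, and Cldn5 and Ocln lie at the median of all genes.

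The ligand Vegfa was at 0.94, 0.93, 1.28 and 0.38 in COS rats 1 to 4 and at 1.03, 0.45, 0.17 and -0.61 in CES rats 1 to 4. CES 1 lay within the COS range and CES 4 below all other rats, so that the groups overlapped. The difference was -0.62 ± 0.28 (standard error; limma adjusted p = 0.112), and -0.22 under the common scaling (limma adjusted p = 0.578, 95% interval -0.90 to 0.45). Without CES replicate 2 it was called at -0.82 under the first scaling (limma adjusted p = 0.0330), and without any other rat it was not called. It shrank to -0.36 without CES replicate 3 (limma adjusted p = 0.274) and to -0.30 without CES replicate 4 (limma adjusted p = 0.280). These values averaged the 10 spots of Vegfa 1 and the spot of Vegfa 2, and 2 bright spots of Vegfa 1 weighed on them. The scanner software marked as outliers a spot of 3.49 in CES 1 and one of 2.10 in CES 2, where the 10 spots of Vegfa 1 had an SD of 1.06 and 0.68 against 0.17 to 0.29 in the other 6 rats. It also marked 2 spots in CES 3, at 0.42 and -0.13. Without marked spots the difference was -0.96 (limma adjusted p = 0.00872), and -0.56 under the common scaling (limma adjusted p = 0.0526). With the median over the spots it was -0.94 (limma adjusted p = 0.00853) and -0.54 (limma adjusted p = 0.0492). Vegfa 2, a single spot at the start of the coding sequence, gave -0.78 by itself (limma adjusted p = 0.0225) and -0.38 under the common scaling (limma adjusted p = 0.151).

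Flt1, the high-affinity receptor, was at -0.66, -0.75, -0.37 and -1.22 in COS rats 1 to 4 and at -1.48, -1.69, -1.34 and -2.64 in CES rats 1 to 4. Every CES rat was below every COS rat under both scalings. Flt1 fell by 1.04 ± 0.23 (standard error; limma adjusted p = 0.00961), a level 2.06-fold higher in COS, and the difference was -0.64 under the common scaling (limma adjusted p = 0.0696). The call was lost without COS replicate 3 (limma adjusted p = 0.0740), and a call under the common scaling was gained without CES replicate 4 (limma adjusted p = 0.0464). Its probes did not move alike. Flt1 2, at position 1641 of the transcript, gave -1.35 (limma adjusted p = 0.00511) and -0.95 under the common scaling (limma adjusted p = 0.0313), whereas Flt1 1, at position 4406 towards the 3′ end, gave -0.53 (limma adjusted p = 0.102) and -0.13 (limma adjusted p = 0.684). Flt1 1 was dim, at 2.58 to 6.03 times background, and well above background in 2 of 4 rats of each group, and Flt1 2 in 4 rats of COS and 2 of CES. Which form of Flt1 each probe reads, membrane or soluble, was not determined here, and the cause of the difference between the probes was not tested.

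Kdr, the signalling receptor, was at 4.28, 4.16, 3.90 and 3.26 in COS rats 1 to 4 and at 2.34, 3.52, 2.51 and 1.97 in CES rats 1 to 4. CES 2 lay above COS 4, and the other CES rats lay below all COS rats. The level came from 1 spot of 1 probe, for which no genome position was given. Kdr fell by 1.31 ± 0.34 (standard error; limma adjusted p = 0.0175), and the difference was -0.92 under the common scaling (limma adjusted p = 0.0918). Without CES replicate 2 it was -1.69 (limma adjusted p = 0.000366) and -1.24 under the common scaling (limma adjusted p = 0.00386), while the call was lost without COS replicate 1 (limma adjusted p = 0.0595), COS replicate 3 (limma adjusted p = 0.102) or CES replicate 1 (limma adjusted p = 0.0793). The ligand and its receptors were thus at lower means in CES under both scalings, with Flt1 and Kdr called under the first.

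Angpt2, the ligand of activated endothelium, had the largest difference of the 9 genes under both scalings. It was at 2.53, 1.89, 2.97 and 2.29 in COS rats 1 to 4 and at -0.75, 1.17, -0.19 and -1.04 in CES rats 1 to 4. CES 2 was again the CES rat closest to COS, and the groups did not overlap under either scaling. Angpt2 fell by 2.62 ± 0.44 (standard error; limma adjusted p = 0.00452), a level 6.17-fold higher in COS, and the difference was -2.22 under the common scaling (limma adjusted p = 0.0282), or 4.67-fold. Both quantified probes fell under either scaling, with -2.48 for Angpt2 1 and -2.70 for Angpt2 3 under the first. A dimmer Angpt2 probe was not valid in every rat. The call under the common scaling was lost without COS replicate 1 (limma adjusted p = 0.0774), without COS replicate 3 (limma adjusted p = 0.0560), without COS replicate 4 (limma adjusted p = 0.0585) and without CES replicate 1 (limma adjusted p = 0.176), with differences from -2.76 to -1.77 over the rats left out. Under the first scaling it was lost without COS replicate 3 alone (limma adjusted p = 0.0514).

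**Figure D2:**
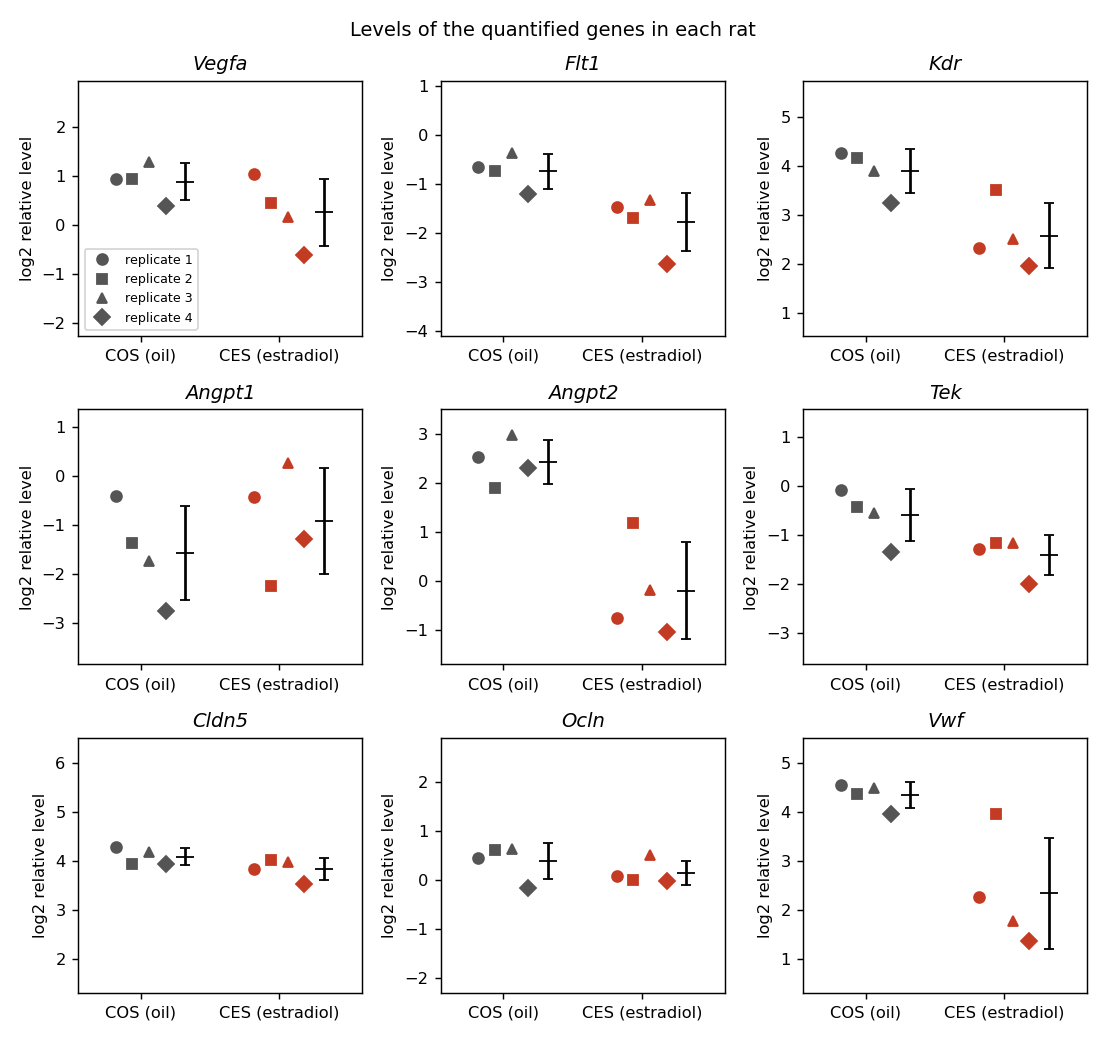
The log2 level (y axis, relative to the median of each rat's own valid spots) of the 9 quantified genes in COS and CES rats (x axis); each symbol is 1 rat, with a shape for each replicate number, and bars give the mean ± SD over 4 rats. The squares of CES 2 lie nearest the COS rats in Kdr, Angpt2 and Vwf.

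Angpt1, the opposing ligand, was at -0.41, -1.36, -1.74 and -2.74 in COS rats 1 to 4 and at -0.42, -2.24, 0.27 and -1.28 in CES rats 1 to 4. The rats spread over more than the distance between the group means. The difference was 0.65 ± 0.40 (standard error; limma adjusted p = 0.236) and 1.05 under the common scaling (limma adjusted p = 0.123, 95% interval -0.01 to 2.11), where it was called at 1.33 without CES replicate 2 (limma adjusted p = 0.0415). The probe was well above background in 2 rats of COS and 4 of CES. The log2 ratio of Angpt2 to Angpt1 within a rat, which no scaling changes, was 2.94, 3.26, 4.71 and 5.04 in COS rats 1 to 4 and -0.33, 3.41, -0.46 and 0.23 in CES rats 1 to 4. CES 2 lay within the COS range, while the other 3 CES rats lay below it. The 2 highest ratios were those of COS 3 and COS 4, the COS rats in which Angpt1 was not well above background, with a foreground of 2.44 and 3.82 times the local background, so the ratio is given as a description with no test.

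Tek, the receptor for both angiopoietins, was at -0.09, -0.42, -0.54 and -1.34 in COS rats 1 to 4 and at -1.28, -1.16, -1.17 and -2.01 in CES rats 1 to 4. COS 4 fell among the CES rats. Tek fell by 0.81 ± 0.26 (standard error; limma adjusted p = 0.0355), and the difference was -0.41 under the common scaling (limma adjusted p = 0.206). The call was lost without any rat but COS replicate 4 or CES replicate 2, with limma adjusted p between 0.0541 and 0.120. The quantified probe was well above background in 3 rats of COS and 2 of CES. A further Tek probe was below a valid level in most rats but stood at 2.53 in CES 3 and 0.57 in CES 4, which are both colours of 1 array, against -5.24 to -1.51 in the other 6 rats. It did not enter the level of Tek, and the cause of the bright spot was not tested.

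Vwf, the stored clotting protein, was at 4.55, 4.37, 4.49 and 3.96 in COS rats 1 to 4 and at 2.27, 3.94, 1.77 and 1.36 in CES rats 1 to 4. The COS rats lay close together, 3 CES rats were far below them, and CES 2 was just below COS 4. Vwf fell by 2.01 ± 0.47 (standard error; limma adjusted p = 0.0119), a level 4.02-fold higher in COS. The difference was -1.61 under the common scaling (limma adjusted p = 0.0589), where CES 2, at 3.30, lay inside the COS range of 3.08 to 3.35. Without CES replicate 2 it was -2.63 (limma adjusted p = 1.15e-05) and -2.10 under the common scaling (limma adjusted p = 0.000928), and the call was lost without COS replicate 3 (limma adjusted p = 0.0817) or CES replicate 1 (limma adjusted p = 0.0544). The level came from Vwf 2, since the other probe, Vwf 1, was not valid in CES 3 and CES 4. Vwf 1 did not show the fall. It was at -2.03, -3.78, -1.92 and -4.10 in COS rats 1 to 4 and at -0.61, -2.57, -2.63 and -5.60 in CES rats 1 to 4, with means of -2.96 and -2.85, and CES 1 lay above every COS rat. It was well above background in 0 COS rats and 2 CES rats, CES 1 and CES 2.

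The tight junction genes showed no such distance. Cldn5, the main claudin of the barrier, was at 4.28, 3.93, 4.17 and 3.93 in COS rats 1 to 4 and at 3.84, 4.01, 3.96 and 3.52 in CES rats 1 to 4. The groups overlapped and the SD was 0.18 in COS and 0.22 in CES. The difference was -0.25 ± 0.17 (standard error; limma adjusted p = 0.276, 95% interval -0.62 to 0.12), next to the median of all genes, and 0.15 under the common scaling (limma adjusted p = 0.476, 95% interval -0.21 to 0.52), so the sign of the mean difference depended on the scaling.

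Ocln, the other junction protein, was at 0.45, 0.60, 0.62 and -0.16 in COS rats 1 to 4 and at 0.07, -0.00, 0.50 and -0.02 in CES rats 1 to 4. Again the groups overlapped, with CES 3 high among the CES rats and COS 4 lowest of all. The difference was -0.24 ± 0.20 (standard error; limma adjusted p = 0.378, 95% interval -0.69 to 0.21) and 0.16 under the common scaling (limma adjusted p = 0.473, 95% interval -0.21 to 0.53). Ocln 1 gave 0.03 and Ocln 2 gave -0.44 (limma adjusted p = 0.113), and neither was called. A p above the threshold does not show that the junction genes were alike in the groups. The fitted intervals of Cldn5 and Ocln reached less than 1 log2 unit in either direction. They do not bound an effect of the array, which cannot be fully told apart from the group.

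Pecam1, the adhesion molecule, was not well above background in any of the 8 rats. Its foreground was 1.84 to 2.97 times the local background, so that no level and no fold are given.

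**Figure D3:**
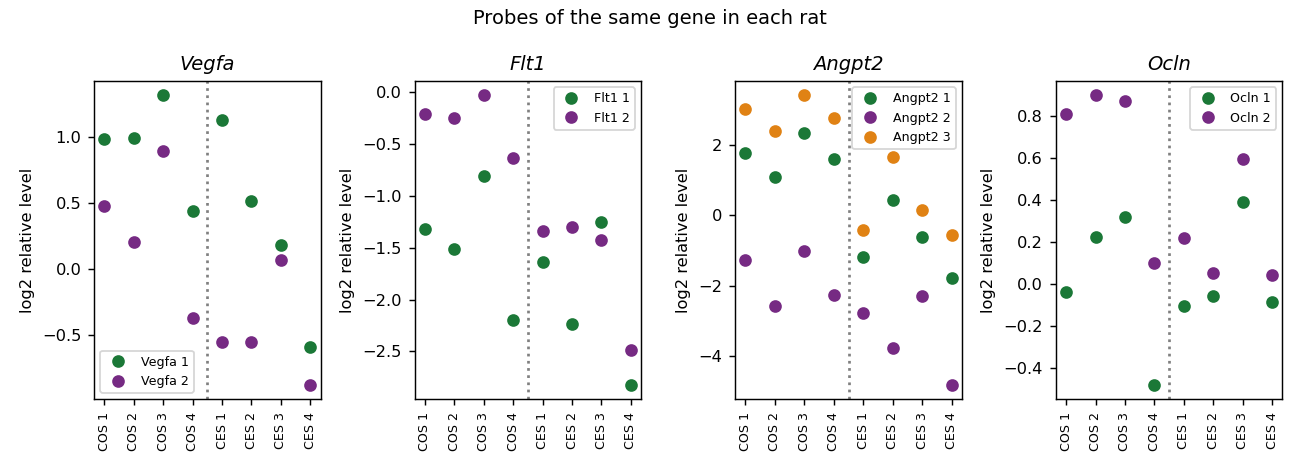
The log2 level (y axis) of each probe of Vegfa, Flt1, Angpt2 and Ocln in each rat (x axis), with the dotted line between COS and CES. The Flt1 probes lie farther apart in COS than in CES rats on average, and each of the 3 Angpt2 probes, the dim Angpt2 2 included, is lower in CES on average.

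Within a rat, the log2 ratio to Cldn5 describes how the vascular genes stood against a junction gene of endothelial cells. The COS and CES rats did not overlap in the ratio for Angpt2, which was -1.66 on average in COS and -4.04 in CES, for Vwf, at 0.26 and -1.50, and for Flt1, at -4.83 and -5.62. They overlapped for Vegfa, Kdr, Angpt1, Tek and Ocln. The mean ratio of Ocln to Cldn5 was -3.70 in both groups. No test was made of these ratios, and since signals of different probes are not on 1 scale, only their change between the groups can be read. The mean change of each ratio is the gene's difference given above less that of Cldn5, so it is no separate result.

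The dye was balanced between the groups. Within the 2 Cy3 rats of each group Angpt2 differed by -3.22 and within the 2 Cy5 rats by -2.03, Vwf by -2.50 and -1.51, Kdr by -1.67 and -0.96, Flt1 by -0.89 and -1.19, and Tek by -0.91 and -0.71. All 5 of these genes thus had the same sign within each dye, which also held for each of them under the common scaling. The genes that were not called, Vegfa, Angpt1, Cldn5 and Ocln, likewise kept their sign across the dyes under each scaling. Agreement between the dyes therefore does not set the 5 called genes apart.

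Flt1 and Kdr, the receptor pair that was lower in CES, are shown with the 250 bases before their start sites, from RefSeq on GRCr8, which is not the build of the probes. The table held 6 start sites of 5 of the 10 genes, 2 of them of Vegfa. Capitals mark matches on either strand to ACGTG or GCGTG, which hold the core of hypoxia response elements, to GGGCGG, a GC box, and to AGGTCA, the core of sites for nuclear receptors including the estrogen receptors. ACGTG and GCGTG differ in the first letter only, so that a single position cannot match both on the same strand. Of 33469 promoter windows of this length 16.6% held ACGTG, 25.9% GCGTG, 30.5% GGGCGG and 14.1% AGGTCA. The first window is chr12:12333180-12333429 and the second chr14:32571813-32572062, both on the + strand.
Flt1: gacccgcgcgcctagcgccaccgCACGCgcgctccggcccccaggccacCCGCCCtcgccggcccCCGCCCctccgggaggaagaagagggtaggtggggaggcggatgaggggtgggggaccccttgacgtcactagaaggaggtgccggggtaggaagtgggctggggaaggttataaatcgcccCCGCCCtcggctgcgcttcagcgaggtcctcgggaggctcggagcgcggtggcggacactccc
Kdr: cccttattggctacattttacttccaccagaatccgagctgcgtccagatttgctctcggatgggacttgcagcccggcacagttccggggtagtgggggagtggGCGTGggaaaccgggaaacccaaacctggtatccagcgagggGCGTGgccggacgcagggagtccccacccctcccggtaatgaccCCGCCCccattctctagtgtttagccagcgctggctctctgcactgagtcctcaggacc
The Flt1 window held 1 match to GCGTG and 3 to GGGCGG, and the Kdr window 2 to GCGTG and 1 to GGGCGG. Neither held ACGTG or AGGTCA. Windows of genes that were not called held matches too. The Ocln window held 1 match to GCGTG, the Cldn5 window 1 to GGGCGG, the first Vegfa window 3 to GGGCGG and the second Vegfa window 1 to AGGTCA. A match is a description of these letters, and no binding was measured.

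The genes around the 10 were read from lists chosen for their known roles. Where a pair of differences is given for a gene below, the second is that under the common scaling. The counts called in each list are to be read beside the shares called over all genes. These were 28.3% lower and 5.8% higher under the first scaling, and 8.05% lower and 15.7% higher under the common one. Among other VEGF ligands and co-receptors, 4 were quantified, and 2 of them were called lower and 0 higher under the first scaling, with 0 higher also at an unadjusted p under 0.05. Under the common scaling 0 were lower, also at an unadjusted p under 0.05, and 2 were higher, namely Vegfb (0.76, limma adjusted p = 0.0424) and the co-receptor Nrp1 (0.84, limma adjusted p = 0.0415). The direction of this list thus turned with the scaling, and Pgf, a ligand of Flt1, and Vegfc were those called lower under the first. Pgf was well above background in 2 rats of each group. Of 4 quantified Tie and angiopoietin-like genes 2 were called lower and 0 higher under the first scaling, with 0 higher also at an unadjusted p under 0.05, and 1 lower and 1 higher under the common scaling. Angptl4, a lipase inhibitor secreted in hypoxia, fell, with differences of -1.86 (limma adjusted p = 0.00294) and -1.47 under the common scaling (limma adjusted p = 0.0180). Angptl2, a secreted angiopoietin-like protein, fell by 1.36 under the first scaling (limma adjusted p = 0.0163) and differed by -0.96 under the common one (limma adjusted p = 0.114). Angptl1, another secreted member of that family, differed by 0.35 under the first scaling (limma adjusted p = 0.146) and rose by 0.75 under the common one (limma adjusted p = 0.0226). In CES Angptl2 passed the background test in 2 of 4 rats, and Angptl1 did so in 2 rats of each group, so their sizes of change rest in part on dim signals. Tie1, the partner of Tek, differed by -0.57 (limma adjusted p = 0.0526) and -0.17 (limma adjusted p = 0.526).

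Among 18 other angiogenic and endothelial signals 13 were called lower and 0 higher under the first scaling, where 2 were higher at an unadjusted p under 0.05, and 7 lower and 3 higher under the common scaling. Cyr61, a matrix protein induced early in stimulated vessel walls, was at 3.16 to 3.72 in COS and at -2.65 to 0.82 in CES, and fell, with differences of -4.50 (limma adjusted p = 0.00359) and -4.10 under the common scaling (limma adjusted p = 0.0189). Adamts1, a protease that cuts matrix and holds back angiogenesis, fell, with differences of -2.88 (limma adjusted p = 0.00359) and -2.48 (limma adjusted p = 0.0189), and Thbs2, an inhibitor of angiogenesis, fell, with differences of -1.64 (limma adjusted p = 0.00811) and -1.24 (limma adjusted p = 0.0399). Each of these 3 genes was well above background in 4 COS rats, but Cyr61 and Thbs2 were so in 2 CES rats and Adamts1 in 1, so the CES levels are in part bounds and the sizes of these differences are uncertain.

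Of 12 junction genes other than Cldn5 and Ocln 5 were called lower and 0 higher, and 2 lower and 0 higher under the common scaling, where 1 was higher at an unadjusted p under 0.05 and under the first scaling 0. Esam, an adhesion molecule of endothelial junctions, fell, with differences of -1.55 (limma adjusted p = 0.00587) and -1.15 (limma adjusted p = 0.0299). F11r, the junctional adhesion molecule A, fell, with differences of -1.30 (limma adjusted p = 0.00359) and -0.90 (limma adjusted p = 0.0182). Jam3, another junctional adhesion molecule, fell by 0.68 under the first scaling (limma adjusted p = 0.0124) and differed by -0.28 under the common one (limma adjusted p = 0.205). Tjp1, a scaffold of tight junctions, differed by -0.41 (limma adjusted p = 0.0712) and -0.01 (limma adjusted p = 0.970).

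Among 22 genes of endothelial identity and transport 14 were called lower and 1 higher, and 8 lower and 2 higher under the common scaling. Procr, the endothelial receptor of protein C, was at 3.55 to 4.25 in COS and at -1.82 to 2.09 in CES and fell, with differences of -4.37 (limma adjusted p = 0.00401) and -3.97 (limma adjusted p = 0.0214). Nos3, the endothelial nitric oxide synthase, fell, with differences of -2.02 (limma adjusted p = 0.00442) and -1.63 (limma adjusted p = 0.0221). The organic anion carrier Slco1a4 rose by 0.72 (limma adjusted p = 0.0104) and 1.12 (limma adjusted p = 0.0180), so not every gene of this list was lower. Cdh5, the cadherin that defines endothelium, differed by -0.50 (limma adjusted p = 0.0743) and -0.10 (limma adjusted p = 0.693). Cdh5 was dim, well above background in 3 COS rats and 2 CES rats, so its difference is uncertain.

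Of 8 genes of endothelial activation 5 were called lower and 0 higher under either scaling, with 0 and 1 higher at an unadjusted p under 0.05. The list is named for known roles in endothelium. In whole DG tissue the cells that made these RNAs were not identified, so the calls do not measure endothelial activation by themselves. Icam1, a leukocyte adhesion molecule, fell, with differences of -2.99 (limma adjusted p = 0.00364) and -2.59 (limma adjusted p = 0.0188), and Thbd, thrombomodulin, fell, with differences of -2.54 (limma adjusted p = 0.00414) and -2.14 (limma adjusted p = 0.0214). Ptgs2, the inducible cyclooxygenase, fell, with differences of -1.89 (limma adjusted p = 0.00760) and -1.49 (limma adjusted p = 0.0484). Vcam1, another leukocyte adhesion molecule, differed by 0.01 (limma adjusted p = 0.956) and 0.41 (limma adjusted p = 0.106). Some genes that fell counted in more than 1 list, namely Thbd in activation and identity, Edn1 in activation and other angiogenic signals, Esam in junction and identity, and Slc2a1 in identity and hypoxia, so the counts and medians of the lists are not independent. Under the common scaling the median difference was -1.07 in the activation list, -0.77 in that of other angiogenic signals, -0.60 in endothelial identity and transport, -0.56 in Tie and angiopoietin-like genes, -0.26 in junction genes, -0.25 in mural genes, -0.15 in hypoxia-inducible genes and 0.30 in the VEGF list, beside 0.15 over all genes. For Procr, Icam1 and Cyr61, CES 2 was the CES rat nearest to COS, as for Angpt2 and Vwf.

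**Figure D4:**
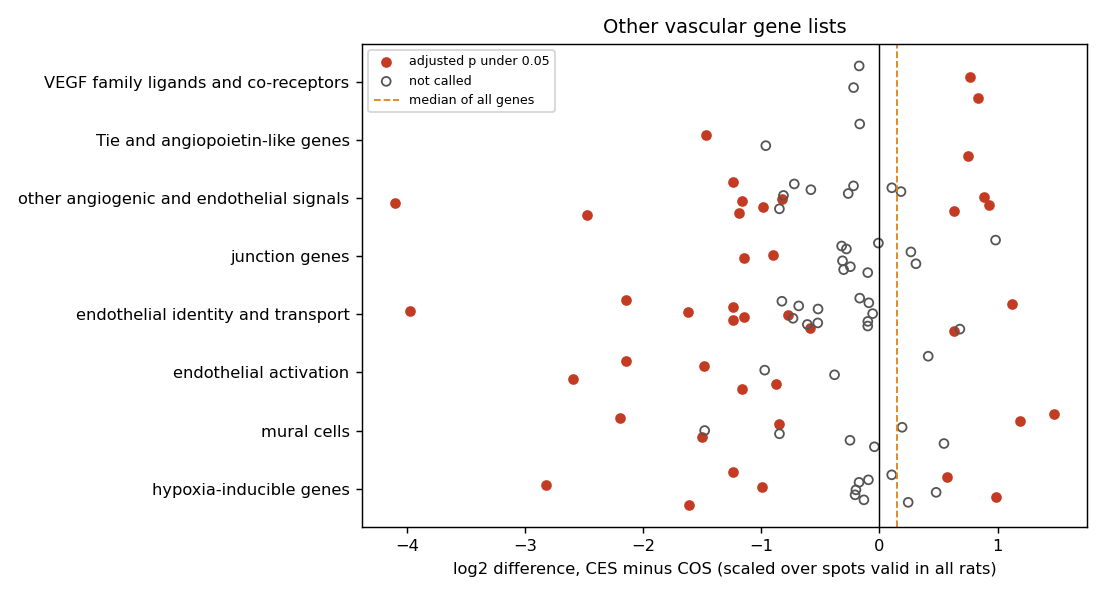
The log2 difference CES minus COS under the common scaling (x axis) of each quantified gene in 8 lists (y axis); filled points are genes with a limma adjusted p under 0.05, open points are not called, and the dashed line is the median of all genes, 0.15. Cyr61 and Procr lie farthest to the left, near -4, and called genes of the VEGF list lie to the right of 0.

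Mural cells and hypoxia were read beside the vessel genes because both bear on them in textbook accounts. Of 11 mural genes 6 were called lower and 2 higher, and 3 lower and 2 higher under the common scaling. Tagln, an actin-binding protein of smooth muscle, fell, with differences of -2.59 (limma adjusted p = 0.00499) and -2.19 (limma adjusted p = 0.0355). Rgs5, a pericyte gene, rose by 0.79 (limma adjusted p = 0.00793) and 1.19 (limma adjusted p = 0.0180). Pdgfrb, also a pericyte gene, fell, with differences of -1.25 (limma adjusted p = 0.00375) and -0.85 (limma adjusted p = 0.0193). Pericyte genes thus did not move one way. Of 14 hypoxia-inducible genes 7 were called lower and 1 higher, and 4 lower and 2 higher under the common scaling. Hmox1, the inducible heme oxygenase, fell, with differences of -3.22 (limma adjusted p = 0.00700) and -2.82 (limma adjusted p = 0.0339), as did the vasodilator Adm, with -2.01 (limma adjusted p = 0.00310) and -1.61 (limma adjusted p = 0.0180), and Slc2a1, the glucose carrier of the barrier, with -1.64 (limma adjusted p = 0.00375) and -1.24 (limma adjusted p = 0.0192). Hif1a, a subunit of the hypoxia-inducible factor itself, fell by 1.40 (limma adjusted p = 0.00394). Other genes of this list did not fall. Bnip3 rose by 0.59 (limma adjusted p = 0.0411) and 0.99 (limma adjusted p = 0.0293). Pdk1 differed by 0.17 (limma adjusted p = 0.440) and rose by 0.57 under the common scaling (limma adjusted p = 0.0419). Pgk1 differed by -0.30 (limma adjusted p = 0.211) and 0.10 (limma adjusted p = 0.551). The list thus did not move one way.

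Markers of other tissue parts were given for the same rats. Beside their counts stand the shares of all genes called, 28.3% lower and 5.8% higher, or 8.05% and 15.7% under the common scaling. The summed level (log2 of the sum of the linear levels) of 9 choroid plexus genes under the common scaling ran from 4.28 to 8.55 in COS and from 4.63 to 7.55 in CES, and 0 of them were called under either scaling or at an unadjusted p under 0.05. The 3 red blood cell genes, at 5.11 to 6.55 and 4.98 to 6.26, likewise had 0 calls and 0 at an unadjusted p under 0.05, and of 8 genes of meninges and fibroblasts 1 was called higher and 2 lower (1 and 0 under the common scaling), at a summed level of 3.79 to 5.58 and 3.83 to 4.53. COS 2 had the highest sum of the choroid plexus and meningeal genes. Of 6 astrocyte genes 3 were called higher and 0 lower in CES (2 and 0 under the common scaling, and 1 lower at an unadjusted p under 0.05 under the first), and the summed level was 6.01 to 6.83 in COS and 6.62 to 7.13 in CES. The astrocyte genes did not move one way. Gjb6, a gap junction protein, rose by 2.27 (limma adjusted p = 0.00770) and 2.67 under the common scaling (limma adjusted p = 0.0245). Gfap, the intermediate filament that defines astrocytes, differed by -1.19 (limma adjusted p = 0.0620) and -0.79 (limma adjusted p = 0.322), and the glutamate carrier Slc1a3 by -0.07 (limma adjusted p = 0.775) and 0.33 (limma adjusted p = 0.259). Of 6 microglial genes 1 was called higher and 2 lower (1 and 0 under the common scaling), with 3.80 to 4.14 and 3.83 to 4.21, and of 6 oligodendrocyte genes 0 were called, also at an unadjusted p under 0.05, with 6.40 to 7.73 and 7.59 to 8.33. The part of any of these cells in the results was not tested. Of 4 quantified granule cell genes of the DG 1 was called higher and 2 lower (1 and 0 under the common scaling). Among these markers C1ql2, Calb1 and Neurod1 were well above background in all 8 rats, while the probe of Prox1, which defines these cells, was not well above background in any.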

How the data were processed

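Total RNA from the DG of 8 rats, 4 COS and 4 CES, was labeled with Cy3 or Cy5 and hybridized to 4 2-colour arrays. The authors deposited the spot and background intensity of each channel from Agilent Feature Extraction 10.7.3.1, per the labels, and a table of log2 values, relative to the median of the channel, which was used as an alternative. Groups and dyes came from the sample labels.

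A spot was valid where its mean intensity was at least 2 times the background median. The background-subtracted signal was divided by the median of the channel's valid spots, averaged over the spots of a gene name that were valid in each of the 8 rats, and converted to log2. Groups were compared by limma 3.58.1 in R 4.3.3, two-sided, with the dye as a fixed term, the array as a random block (statmod 1.5.0) and Benjamini-Hochberg adjustment over 21332 genes, at a threshold of 0.05. The correlation within an array that the fit estimated was -0.01 under the first scaling and 0.28 under the common one. With a rat left out it ran from -0.41 to 0.22 and from 0.04 to 0.67. The main fit under the first scaling thus treated the 8 rats as nearly independent, and the block does not separate array from group. The code was tested on simulated data. The number of arrays limits the precision, with a median standard error of 0.20 per gene.

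The 10 genes, the lists and the tests were chosen with earlier results of these data known. Some genes of the lists are not reported here and enter no list count. From each list, the 3 largest differences among genes called without overlap could be named, and genes named beyond that rule were picked after their values were seen. Alternatives covered background correction, normalization, spot filters, naming, the blocks, the methods' t-test, the log2 table and each rat left out. Dropping marked outlier spots and the median over spots were added after seeing the data. Promoters came from RefSeq GRCr8. Python 3.11.15, numpy 2.4.6, pandas 2.3.3, matplotlib 3.10.9 and the R package data.table (version 1.17.8) were used.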

Additional observations from a re-analysis of the deposited data

Results flagged for a closer look

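In 2 of the 18 groups of 4 rats, 1 rat stood apart from the other 3 by more than Dixon's 95% critical value, which chance gives in about 5% of groups. Tek in CES 4 was at -2.01, with the other CES rats at -1.28 to -1.16. Ocln in CES 3 was at 0.50, with the other CES rats at -0.02 to 0.07. Both are log2 levels relative to the median of the rat's own valid spots.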

How the results depend on the processing

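Over the main setting and up to 25 alternatives under the first scaling, limma or the t-test called Angpt2 lower in 24 of 26, Flt1 in 19 of 24, Vwf in 18 of 26, Kdr in 15 of 26, Tek in 11 of 25 and Vegfa in 3 of 26, and Angpt1, Cldn5 and Ocln in 0. The sign of a called gene reversed for Tek alone, at 0.75 without a filter on valid spots, where the bright extra Tek spot of CES 3 and CES 4 entered its level. Under the common scaling Angpt2 was called in 10 of 15 settings, Flt1 and Vwf in 4, Kdr in 2 and Vegfa and Angpt1 in 1.

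The count of the 10 genes called lower, 5, became 2 with normexp background correction, with loess and Aquantile, with quantile normalization, with no filter and with the stricter filter of 3 times background, 3 with spots well above background in all rats, 1 with the common scaling or the deposited log2 table, and 0 by the t-test. The filter of 3 times background left 7 genes to test and that of spots well above background 6, against 9 in the main setting. Flt1 was not tested under either filter, nor Tek under the latter. With a rat left out it ran from 0 (without COS replicate 3) to 6 (without CES replicate 2), with 3 without COS replicate 1 and 2 without CES replicate 1. Under the common scaling the count of 1 became 3 with no array block or no dye term, 2 with the median over spots and 0 by the t-test, and with a rat left out it ran from 0 (without COS replicate 1, 3 or 4 or CES replicate 1) to 3 (without CES replicate 2, where also 1 gene, Angpt1, was called higher, against 0 without any other rat). Without CES replicate 4 it was 2. The causes were not tested.

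Over all genes, 1238 were called higher and 6038 lower. The counts were 125 and 461 with normexp, 3323 and 2225 with loess and Aquantile, 3059 and 2227 with quantile normalization, 3348 and 1718 with the common scaling, 420 and 2779 with no filter and 3275 and 1927 with the log2 table, with 2828 lower at 3 times background. By the t-test they were 0 and 0, against 772 and 5331 at an unadjusted p under 0.05. With a rat left out they ran from 257 to 1855 and from 914 to 7012. Under the common scaling, 5023 and 2792 were called without the array block and 750 and 335 by the t-test, and 0 to 5333 and 0 to 3075 with a rat left out, where both lowest counts came without COS replicate 1 and without CES replicate 1, with 4492 and 2536 or 3109 and 1579 at an unadjusted p under 0.05.

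Replicate numbers did not pair the rats. After the dye was taken out, deviations of same-numbered rats correlated at -0.28 to 0.08. With the replicate block in place of dye and array 5 of the genes were lower under the first scaling and 4 under the common one, and 1241 genes were higher and 6624 lower. Dim probes (Pecam1, and Angpt1, Flt1 1 and Tek in part) limit what can be read of their genes.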
